A study of Saccharomyces cerevisiae with 10 samples.

Results

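Yeast deletion strains (Saccharomyces cerevisiae) that each lacked 1 protein of the mitochondrial ribosome were followed across 10 doses of benomyl in a pooled competition read on tag arrays. The strains were found by gene symbol in the annotation of the array. Of 60 genes listed, 58 had named spots, among 5325 named strains in all, and MRP4 and RSM26 were not analysed here. The 58 strains lacked 33 proteins of the large subunit and 25 of the small subunit.

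Per the labels, 5896 heterozygous diploid knockout strains were pooled and sporulated, and haploid MATa cells were selected at 30 °C on a medium that lets only such haploids grow. The pools that were compared on an array came from this medium with benomyl, which binds tubulin and depolymerises microtubules, or from the medium without it. There was 1 array at each of 0, 1, 5, 10, 15, 20, 25, 30, 35 and 40 µg/ml, and on the array at 0 µg/ml neither pool had drug. Both pools of an array were selected for the same time, which was 2 days for doses up to 10 µg/ml, 3 days for 15 µg/ml and 4 days for the 5 higher doses. Doses are in µg/ml throughout.

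The mitochondrial ribosome translates the few messengers of mitochondrial DNA, which in yeast encode core subunits of the respiratory chain and of the ATP synthase, and 1 ribosomal protein. All its other proteins are encoded in the nucleus and imported. Yeast without mitochondrial translation cannot respire, tends to lose its mitochondrial DNA and grows by fermentation, so such deletions are viable on glucose. Many of the proteins are homologues of bacterial ribosomal proteins, and others are found only in mitochondrial ribosomes. Family names below, such as uL3, are those given by RefSeq for assembly R64, where u marks families shared by all ribosomes, b those shared with bacteria and m those of mitochondria.

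Values are log2 ratios of tag signals, centred on the median of the named spots of each array and averaged over the spots of a strain. The ratio is likely that of the drug-free pool to the drugged one, because the labels give Cy5 to the first and Cy3 to the second and the scanner program divides Cy5 by Cy3 by default. Nothing in those sources names the numerator itself. Strains lacking CIN1, CIN2, TUB3, PAC10 or MAD2, which are known to be hypersensitive to benomyl, had log2 ratios of 5.15 to 7.57 at 40 µg/ml. With this direction a positive value means that a strain was scarcer, relative to the median strain, in the pool with drug. Every sign would turn with the other direction. Across all strains the standard deviation of the log2 ratio was 0.51 for dose 0, 0.89 for dose 5, 0.72 for dose 15 and 1.46 for dose 40, so a fixed log2 value is a different rank on different arrays. No dose was repeated, the labels do not say which arrays came from separate sporulations, and p-values rest on how far single arrays scatter around a fit.

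Strains of the mitochondrial ribosome stood with the median strain at doses 0 and 1, lay well above it at dose 5, returned close to it at dose 15 and lay above it again from dose 20. Their median log2 ratio was -0.01 at dose 0, 0.01 at dose 1, 1.07 at dose 5, 0.38 at dose 10 and 0.11 at dose 15. It was 0.70 at dose 20, 1.21 at dose 25, 1.33 at dose 30, 1.44 at dose 35 and 1.60 at dose 40. The median of all strains stayed between -0.01 and 0.06 on the 10 arrays. Among the arrays from dose 5 up the lowest median was that at dose 15, with the dose 10 array already low and the dose 20 array above it.

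**Figure D1:**
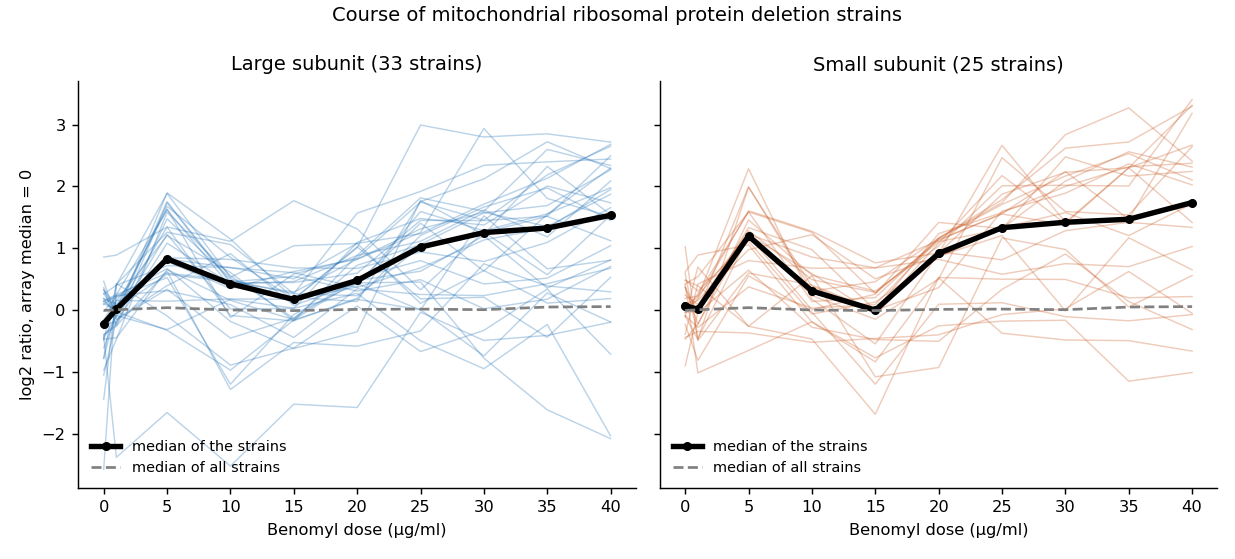
Log2 ratio of each strain (array median set to 0, vertical axis) against benomyl dose in µg/ml (horizontal axis), for 33 large-subunit strains on the left and 25 small-subunit strains on the right. Thin lines are strains, the thick line is their median and the dashed line the median of all strains; both medians have a first peak at dose 5, are low at dose 15 and reach 1.53 (large) and 1.74 (small) at dose 40.

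The same course was seen in ranks, which do not depend on the spread of an array. The median strain of the group stood at percentile 94.4 of all strains at dose 5, 77.7 at dose 10, 61.4 at dose 15 and 89.8 at dose 20. From dose 25 to dose 40 it stood between 90.4 and 92.9. The rank at dose 40 was therefore no higher than at dose 5, although the log2 ratio was. Of the 58 strains, 35 were among the highest 10.0% of all strains at dose 5, 13 at dose 10, 8 at dose 15, 29 at dose 20, 36 at dose 30 and 29 at dose 40, where that share of all strains is fixed by construction. On all 4 arrays from dose 25 up, 24 of them were among the highest 10.0%, as were 239 of all strains.

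Counts past 2-fold followed the same course. Without drug 1 of 58 strains was at least 2-fold above the median, against 2.42% of all strains, and with dose 1 none was, against 3.91%. With dose 5 it was 30 strains, or 51.7%, against 6.29% of all, then 6 with dose 10 (5.37% of all), 2 with dose 15 (4.3%) and 17 with dose 20 (5.71%). With doses 25, 30 and 35 it was 34, 36 and 36 strains, against 10.6%, 11.1% and 14.8% of all, and with dose 40 it was 38 strains, or 65.5%, against 19.3%. The excess over all strains was thus present with dose 5, absent with dose 15 and back with dose 20. Few of the strains were as far below the median. Over doses 0, 1, 5, 10 and 15 it was 3, 2, 1, 3 and 4 strains, or 5.17%, 3.45%, 1.72%, 5.17% and 6.90%. The shares of all strains were 3.83%, 3.55%, 12.1%, 12.7% and 7.46%, so at doses 0, 1 and 15 the group was near them. Over doses 20, 25, 30, 35 and 40 it was 1, 0, 0, 2 and 3 strains, against 7.1%, 9.88%, 12.5%, 14.3% and 18.1% of all.

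**Figure D2:**
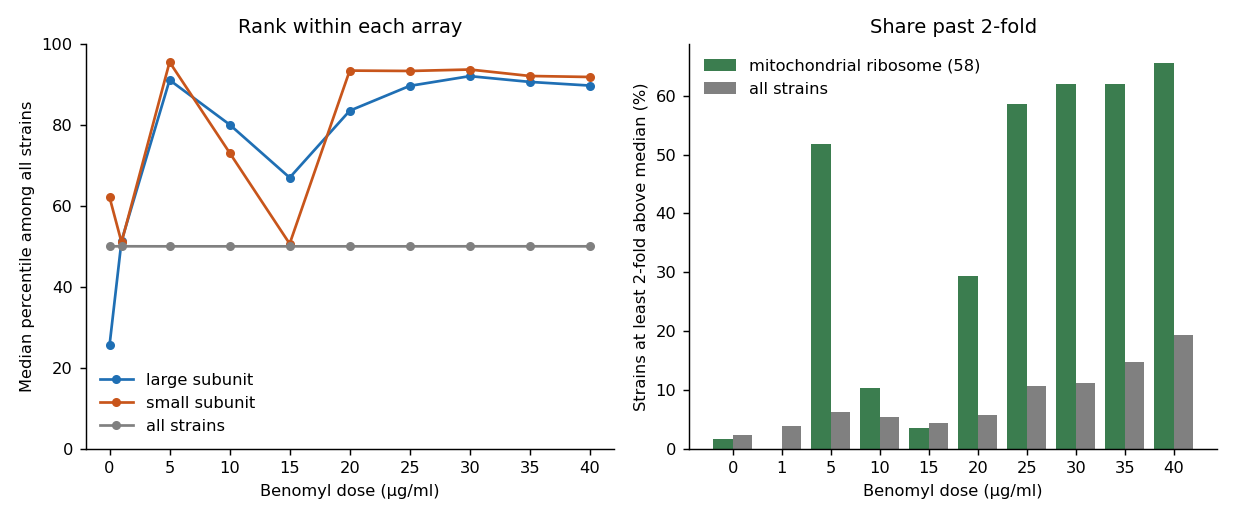
Left, median percentile of the large-subunit, small-subunit and all strains within each array against benomyl dose in µg/ml. Right, percent of strains at least 2-fold above the array median at each dose for the 58 mitochondrial ribosome strains and for all strains; the green bars stand at 51.7% for dose 5 and 65.5% for dose 40, and near the grey ones for dose 15.

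The step up and the way back were shared by most strains of the group. With dose 5, 51 of 58 strains were higher than with dose 1, against 51.7% of all strains. In all, 52 of 58 strains were lower at dose 10 than at dose 5, against 52.1% of all strains, and 53 were lower at dose 15 than at dose 5, against 52.6%. Fewer, 37, were lower at dose 15 than at dose 10, against 51% of all. All 25 small-subunit strains and 28 of 33 large-subunit strains were lower at dose 15 than at dose 5. The 5 exceptions lacked MRPL36, MRPL10, MRPL6, MRPL27 or MRPL50. The return was as broad, since 49 of 58 strains were higher at dose 20 than at dose 15, against 50.7% of all strains, and 40 were higher than at dose 10, against 50.1%. With dose 25, 45 strains were higher than with dose 20, against 51.7%. Among the 8 arrays from dose 5 up, 27 strains were lowest at dose 15, 17 at dose 10 and 5 at dose 20. The matching counts over all strains were not taken.

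Tags of a strain lie in 2 sections of the array layout, which are taken to hold its uptag and downtag, and the course was present in each. In the first section the group's median was 0.83 at dose 5, 0.16 at dose 10, 0.07 at dose 15, 0.66 at dose 20 and 1.67 at dose 40. In the second section it was 1.16, 0.45, 0.21, 0.70 and 1.74 at these doses. The sections share the array, the pools and the days. The dose 15 array was the only one of 3 days, and on the dose 10 array 3.59% of ratios were whole hundredths, against 99.9% or more on the others. The part of days, and of the other form of the dose 10 values, in the low values at doses 10 and 15 was not tested.

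Contrasts were fitted in limma, with arrays of neighbouring doses as groups, to ask which single strains moved in these steps. Strain means at doses 5 and 10 exceeded those at doses 0 and 1 in 49 of 58 strains, against 2815 of 5325 over all strains. The group's median difference was 0.70, against 0.03 over all strains. The median was 0.33 without the dose 5 array and 1.04 without the dose 10 array. All 4 of these arrays had 2 days of selection. Only MRPL16 rose past the threshold of 0.05 on the adjusted p, against 0.77% of all strains, none fell, against 1.88%, and 18 of the group were higher at an unadjusted p below it, as were 322 of all strains. MRPL16, the uL16 protein, averaged 1.52 at doses 5 and 10 and -0.35 at doses 0 and 1, a difference of 1.87 ± 0.38 (SE, 4 arrays in the contrast, limma adjusted p = 0.0383). This call was lost without any single one of 8 arrays, at adjusted p of 0.0514 to 0.172, and held without the dose 25 or the dose 40 array.

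No strain of the group or of the whole table changed past the threshold between the arrays at doses 15 and 20 and those at doses 5 and 10. In limma 5 of the group fell at an unadjusted p below 0.05 and none rose, while over all strains 59 fell and 216 rose at that level. Strain means at doses 15 and 20 lay below those at doses 5 and 10 in 43 of 58 strains, against 2781 of 5325 over all strains. The median difference was -0.24, against -0.02 over all strains. The group's median turned to 0.04 without the dose 5 array and also without the dose 15 array, and was -0.61 without the dose 10 array. The lowest differences were of MRPS5 at -1.15 ± 0.45, RSM25 at -1.05 ± 0.72, MRPL23 at -0.99 ± 0.35 and MRPS17 at -0.98 ± 0.33, with limma adjusted p of 0.634 or higher. MRPS5, the uS5 protein, was at -1.08 and -0.93 at doses 15 and 20, and at -0.26 and 0.56 at doses 5 and 10. Its difference was -0.25 in the first section of the array layout and -2.05 in the second. RSM25, a mitochondria-specific protein, was at -0.55 and 0.92 at doses 15 and 20, and at 2.29 and 0.18 at doses 5 and 10, so that its arrays overlapped.

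At doses 25 to 40 against doses 15 and 20, 12 of 58 strains rose and none fell, against 3.1% and 3.17% of all strains. The median difference was 1.12, against 0.05 over all strains. MRPL16 averaged 2.84 at doses 25 to 40 and 0.59 at doses 15 and 20, a difference of 2.25 ± 0.33 (limma adjusted p = 0.00518). MRPL51, a mitochondria-specific protein of the large subunit, averaged 1.71 at the higher and -0.49 at the lower doses, a difference of 2.20 ± 0.36 (limma adjusted p = 0.0082), and was singled out after its values were seen. MRPS17, the uS17 protein, averaged 1.97 at the higher and 0.18 at the lower doses, a difference of 1.79 ± 0.28 (limma adjusted p = 0.00705). The count was 0 without the dose 15 array (0.113% of all strains), where the median difference was 0.80, and 3 without the dose 20 array (0.601%), 6 without the dose 35 array (1.35%) and 6 without the dose 40 array (2.42%). With arrays scaled to equal spread it was 2, against 1.11% of all strains, with a median difference of 0.56, and after quantile normalization it was 2, against 0.995%, with a median of 0.52. Of these arrays only that at dose 15 had 3 days and not 4, and the part of days in the rise was not tested.

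Over the whole range, the trend was a straight line against dose, fitted for every strain over the 10 arrays in limma, and its size is the change on the fitted line, in log2 units, from dose 0 to dose 40. Of 58 strains 30 rose and 1 fell, against 10.3% and 9.13% of all strains. The median fitted change was 1.49, against 0.09 over all strains, and 52 of 58 were positive, against 2881 of 5325 over all strains. The count was 19 without the dose 1 array, against 6.99% of all strains, and 17 without the dose 40 array, against 5.90%. With days of selection as a covariate 3 strains rose, lacking MRP49, MRPL24 or RSM22, against 2.95% of all strains, and the median fitted change was 1.72, against 0.15 over all strains. Along the 4-day arrays alone 1 strain rose, lacking MRP1, against 1.75% of all strains, and the median was 1.75, against 0.15 over all strains. Along the 2-day arrays alone, which reach dose 10, none of the group and none of all strains passed in limma, and 1 of the group did at an unadjusted p below 0.05. The median, extrapolated from doses 0 to 10, was 1.87, against 0.15 over all strains. With all arrays scaled to equal spread 1 strain rose, lacking MRPS9, against 1.15% of all strains, with a median of 0.96, against 0.10 over all strains. The median fitted change was thus positive at fixed days and, in a separate fit, at equal spread, while few single strains passed there. No fit combined these settings. At equal spread the group's median log2 ratio on the 4-day arrays was 0.92, 1.17, 1.12, 0.99 and 0.92 at doses 20, 25, 30, 35 and 40.

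**Figure D3:**
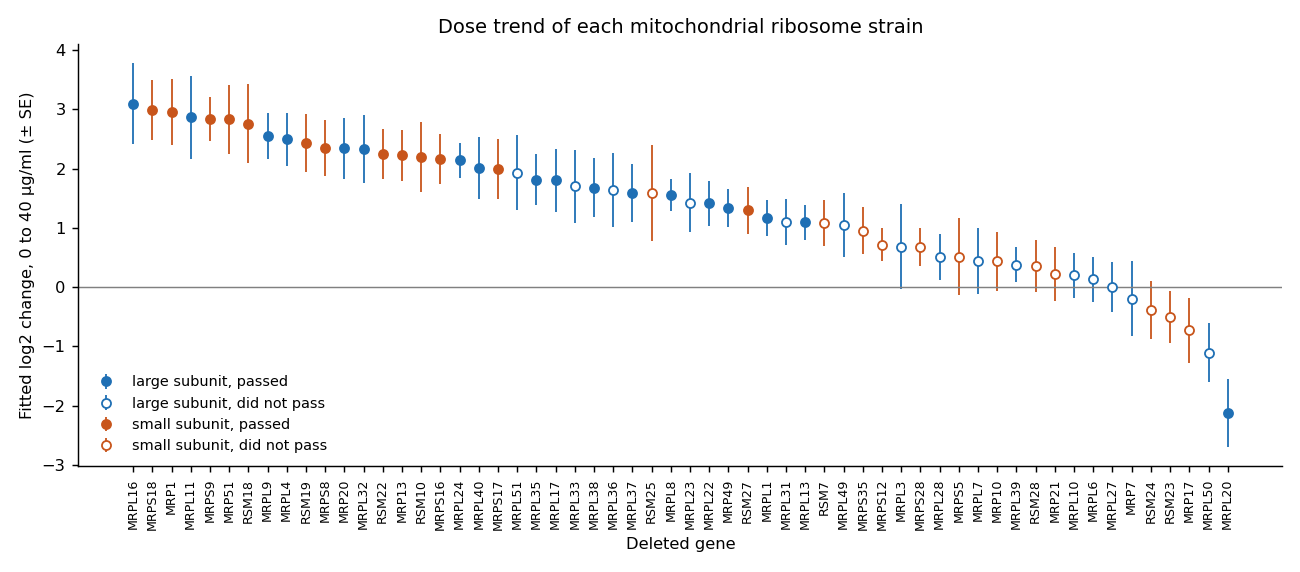
Fitted change in log2 ratio over doses 0 to 40 µg/ml (vertical axis) for the 58 strains, ordered along the horizontal axis by that change. Points are limma estimates over 10 arrays, bars are ± 1 SE, blue is the large and orange the small subunit, and filled points passed the adjusted threshold; 30 rose and MRPL20 alone fell.

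Among large-subunit strains the largest trend was that of MRPL16. Its log2 ratio was -0.61, -0.08, 1.90, 1.15, 0.18, 1.01, 2.99, 2.80, 2.85 and 2.72 at doses 0, 1, 5, 10, 15, 20, 25, 30, 35 and 40, in that order. This mean of its tags was high at dose 5, low at dose 15 and level from dose 25. Its layout sections differed, at 4.48 and 1.51 at dose 25 and at 2.14 and 3.46 at dose 30. The fitted change of MRPL16 was 3.10 ± 0.68 (SE, n = 10 arrays, limma adjusted p = 0.0092). MRPL9, the uL3 protein, which in bacteria helps to shape the peptidyl transferase centre, was at -0.22, -0.20, 1.08, 0.43, 0.46, 0.88, 1.82, 1.60, 2.60 and 2.34 over the same doses. Its 4 values from dose 25 up lay above all others, and it rose by 2.56 ± 0.39. MRPL4, the uL29 protein, was measured on 12 spots in place of the usual 2. It was at -0.49, 0.42, 1.26, 1.06, 0.26, 1.57, 1.92, 2.34, 2.40 and 2.44, with its low value at dose 15 between 2 higher ones, and rose by 2.50 ± 0.45.

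MRPL11, the uL10 protein at the base of the ribosomal stalk, was at -1.45, 0.25, 1.62, 0.38, 0.20, 0.14, 1.75, 2.12, 2.72 and 2.29. Its value without drug was the lowest but one of the group, after that of MRPL3 at -2.58, and its rise of 2.87 ± 0.70 was not called without the dose 35 array, at 2.61. MRP20, the uL23 protein, which lies at the exit of the peptide tunnel in bacteria, was at -0.23, 0.06, 1.63, -0.12, 0.58, 0.84, 1.75, 1.45, 2.19 and 2.65. It was high at dose 5 and below 0 at dose 10, and its rise of 2.34 ± 0.51 was not called without the dose 40 array, at 2.13. MRPL32, the bL32 protein, rose by 2.34 ± 0.57, and its call was lost without the dose 0, the dose 1 or the dose 40 array, at 1.95, 2.20 and 2.18. MRPL24, the bL28 protein, had a course with less of a dip. It was at 0.26, 0.40, 0.72, 0.69, 0.51, 1.08, 1.24, 1.71, 2.13 and 2.68, lower at dose 15 than at dose 5 but close to it, and rose by 2.14 ± 0.29. It was singled out after its values were seen.

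Among small-subunit strains the largest trends were those of MRPS18, MRP1, MRPS9, MRP51, RSM18 and RSM19. MRPS18, the uS11 protein of the platform, was at -0.47, -0.23, 1.46, 0.56, 0.31, 1.04, 2.01, 2.02, 2.01 and 3.41. It was level from dose 25 to dose 35 and highest at dose 40, and it rose by 2.99 ± 0.51 (SE, n = 10 arrays, limma adjusted p = 0.00269). MRP1, a mitochondria-specific protein of the superoxide dismutase fold, was at -0.04, -0.02, 1.99, 0.31, 0.46, 1.16, 1.79, 2.62, 2.72 and 3.30. It was far lower at dose 10 than at dose 5 and was then higher with each step up to dose 40. Its fitted change was 2.96 ± 0.56.

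MRPS9, the uS9 protein, whose tail reaches the P site in bacteria, was low in the first part of the course. It was at -0.09, -0.28, 0.37, 0.03, 0.09, 1.16, 1.71, 2.17, 2.53 and 2.11, with a small value at dose 5 and values over 1 only from dose 20. Its rise of 2.84 ± 0.37 had the smallest adjusted p of the group (limma adjusted p = 0.000612). MRP51, of the bS1 family, rose by 2.83 ± 0.59 and was highest, at 3.27, at dose 35. RSM18, the bS18 protein, rose by 2.76 ± 0.67, and its call was lost without the dose 1 or the dose 40 array, at 2.51 and 2.31. RSM19, the uS19 protein, was at 0.59, -0.47, 1.20, 0.00, 0.26, 1.42, 1.32, 2.09, 2.56 and 2.31. Its value at dose 20 was above that at dose 5, and it rose by 2.44 ± 0.49.

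RSM22, singled out after its values were seen, is counted with the small subunit and resembles enzymes that methylate ribosomal RNA. Its strain was at -0.04, 0.18, 1.61, 1.27, 0.76, 0.92, 1.87, 2.23, 2.30 and 2.67, 1 of the 3 that rose with days as a covariate, and rose by 2.25 ± 0.43 without it. The other strains that rose had fitted changes of 1.09 to 2.35, the smallest of them that of MRPL13 at 1.09 ± 0.30, a mitochondria-specific protein measured on 12 spots and named here for that reason.

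MRPL20, a mitochondria-specific protein of the large subunit, was the only strain of the group that fell. It was at 0.47, -0.15, 0.40, 0.91, 0.07, 0.44, 0.45, -0.78, -1.61 and -2.08. This mean of its tags was near or above the median strain up to dose 25 and below it on the last 3 arrays. Its fitted change was -2.12 ± 0.57 (SE, n = 10 arrays, limma adjusted p = 0.0242). The call was lost without the dose 35 or the dose 40 array, at -1.86 and -1.57, and in the second layout section the change was -0.55, against -3.70 in the first. At doses 30, 35 and 40 the second section was at 0.35, -0.57 and 0.64, and the first at -1.91, -2.66 and -4.81. MRPL50, the bL9 protein, was at -0.45, -0.09, -0.32, 0.17, 0.03, 0.27, -0.50, -0.95, -0.23 and -2.04. It lay close to the median strain up to dose 20 and was lowest at dose 40, with a fitted change of -1.11 ± 0.50 that did not pass (limma adjusted p = 0.145).

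The others with the lowest fitted changes did not pass either. In the small subunit they were MRP17, the bS6 protein, at -0.73 ± 0.55, RSM23, the homologue of the human GTP-binding protein DAP3, at -0.50 ± 0.44, and RSM24, a mitochondria-specific protein, at -0.38 ± 0.49. The layout sections of MRP17 were at 0.68 and -1.91 and those of RSM24 at 0.70 and -1.47, while RSM23 was negative in both. In the large subunit MRP7, the bL27 protein, was at -0.19 ± 0.63. The MRP7 strain was at -0.78, 0.41, 1.89, 0.53, 1.04, 1.08, 0.11, 0.64, 0.11 and 0.19. This mean of its tags was highest at dose 5 and lower from dose 25 on than at doses 15 and 20. In the first layout section by itself the order was the other way, at 0.53 and 0.33 at doses 15 and 20 and 0.66 to 1.40 from dose 25. MRPL27, a mitochondria-specific protein, had a fitted change of 0.00 ± 0.42. It was at 0.86, 0.89, 1.34, 1.11, 1.77, 1.31, 0.33, 1.26, 0.57 and 1.53, and was singled out after its values were seen. This mean of its tags was above the median strain on every array, the one without drug included, lowest at dose 25 and highest at dose 15. Its 2 layout sections differed, at 2.61 and -0.38 at dose 10 and at 1.36 and -0.70 at dose 25. The first section was highest at dose 10.

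The tags of a strain did not always tell the same course. Both sections gave a positive fitted change in all 30 strains that rose, and in 10 of the 27 that were not called. The call is made on the mean of the sections, so that part of this follows from the averaging. In 6 strains the sections had opposite signs and both changes exceeded 1 in size. MRPL10, the uL15 protein, changed by 3.84 in the first section and by -3.43 in the second, with a mean change of 0.20 ± 0.38. MRPL49, the bL21 protein, was at 3.23 and -1.14, MRPL7, the uL5 protein, at -1.57 and 2.46, the mitochondria-specific MRP10 at -1.25 and 2.12, MRPL6, the uL6 protein, at -1.79 and 2.06, and MRP7 at 1.23 and -1.61. For these 6 strains the average over tags is not a course that either tag had. By section, 25 of the 58 strains rose in the first and 24 in the second, against 9.52% and 8.62% of all strains. Of the 30 called on the mean, 22 were also called on the first section by itself and 20 on the second. Sizes could differ widely in strains that rose. MRPL22 was at 0.11 and 2.72, MRPS8 at 4.26 and 0.43, and RSM10 at 3.44 and 0.95, and these were picked for their gaps. Over the 58 strains the median gap between sections was 0.96.

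**Figure D4:**
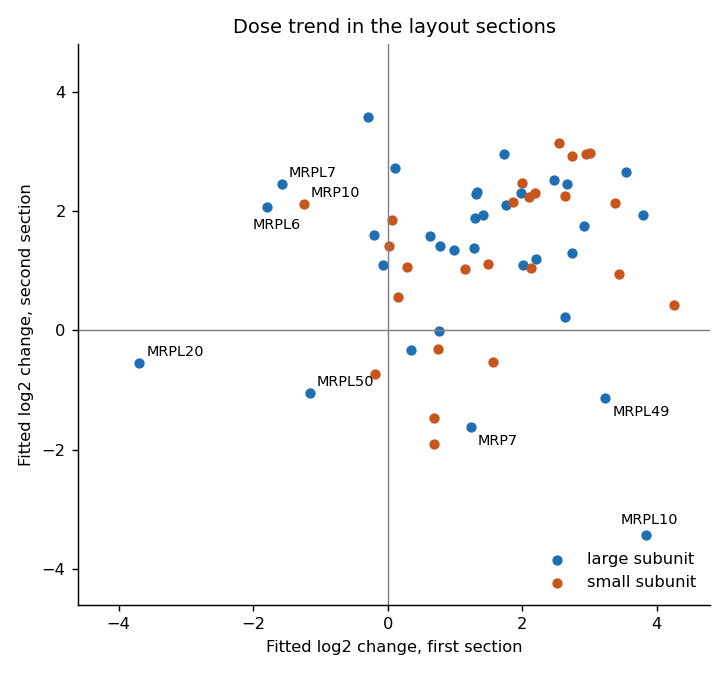
Fitted change in log2 ratio over doses 0 to 40 µg/ml for each strain in the first layout section (horizontal axis) and in the second (vertical axis), blue for the large and orange for the small subunit. The named points are the 6 strains with opposite changes over 1 in size, and MRPL20 and MRPL50; most others lie in the upper right part.

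Both subunits had the first peak at dose 5, the low at dose 15 and high medians at dose 40. Of 33 large-subunit strains 17 rose and 1 fell, with a median fitted change of 1.43, and of 25 small-subunit strains 13 rose and none fell, with a median of 1.59. The background was again 10.3% for rises and 9.13% for falls. The large-subunit median was 0.83 at dose 5, 0.17 at dose 15, 0.48 at dose 20 and 1.53 at dose 40. The small-subunit median was 1.20, 0.00, 0.92 and 1.74 at these doses. The large-subunit median was the lower one on 7 of 10 arrays, among them the array without drug, at -0.22 against 0.07. This difference was not tested, and the difference in median fitted change, -0.16, turned to 0.18 in the second section alone and to 0.09 with days as a covariate. By ancestry, 21 of 37 homologues of bacterial proteins rose, with a median of 1.68, and 8 of 20 mitochondria-specific proteins rose and 1 fell, with a median of 1.10. That difference was not tested.

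The courses of most members resembled each other. Each strain's 10 values were correlated with the median of the other 57, which shares the arrays and their spread and is given as a description. Pearson's r had a median of 0.88 and was over 0.8 in 37 of 58 strains. It was highest for MRP1 at 0.97, MRPL16 at 0.96 and MRPS18 at 0.96. It was lowest for MRPL20 at -0.66, MRPL50 at -0.62 and RSM23 at -0.31.

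In each of 6 lists of other genes of mitochondrial gene expression and respiration, the list median was higher at dose 5 than at dose 15, as it was for the ribosomal strains. At dose 20 the list median was below that at dose 15 for the translational activators, at 0.01 against 0.14, and for the respiratory chain and ATP synthase, at 0.16 against 0.27, unlike that of the ribosomal strains. Of 17 further proteins of the mitochondrial ribosome 8 rose and none fell, with a median fitted change of 1.87 and list medians of 1.02, 0.04 and 1.52 at doses 5, 15 and 40. Of 13 mitochondrial aminoacyl-tRNA synthetases, which charge the tRNAs used in mitochondria, 9 rose and none fell, with a median of 2.08. Of 17 translation factors and ribosome GTPases 9 rose and 1 fell, with a median of 1.43, and of 11 genes of mitochondrial DNA upkeep and transcription 6 rose and none fell, with a median of 1.82. Of 16 activators of single mitochondrial messengers 5 rose and none fell, with a median of 1.10. Of 37 genes of the respiratory chain, its assembly and the ATP synthase 7 rose and none fell, with a median of 0.74. The background for these counts is 10.3% and 9.13%, and differences between the lists were not tested.

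Single genes of these lists differed in size and sign. MTF1, the specificity factor of the mitochondrial RNA polymerase, rose by 3.63 ± 0.38, MSY1, the tyrosyl-tRNA synthetase, by 3.52 ± 0.47, and MTG1, a GTPase of ribosome assembly, by 3.18 ± 0.56. ATP11, an assembly factor of the ATP synthase, rose by 2.71 ± 0.54 and AEP2, an activator of an ATP synthase messenger, by 2.46 ± 0.46. FMT1, which formylates the initiator tRNA, fell, with an estimate of -1.44 ± 0.41. SWS2, a small-subunit protein, was estimated at 3.30 ± 1.17 and did not pass, with log2 ratios of -2.04 at dose 20 and 3.27 at dose 40. FYV4, also of the small subunit, was at -1.93 ± 0.63 and did not pass. At the low end of the other lists, the DNA polymerase MIP1 was at 0.45 ± 0.34, the synthetase MSF1 at 0.04 ± 0.37, the activator MSS51 at -0.96 ± 0.32 and COX18 at -1.29 ± 0.79, none of them past the threshold.

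**Figure D5:**
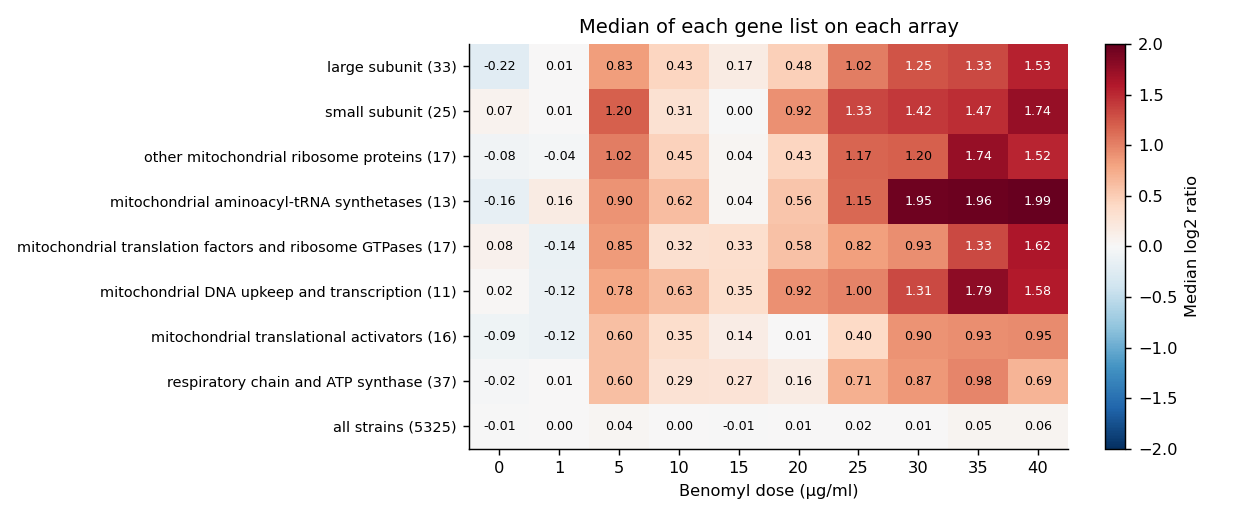
Median log2 ratio of each gene list (rows, number of strains in brackets) on each array (columns, benomyl dose in µg/ml), from blue (negative) to red (positive). Most lists of mitochondrial gene expression are red at dose 5, pale at dose 15 and red again from dose 25, and the row of all strains is pale throughout.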

How the data were processed

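Tag arrays compared 2 pools per dose, 1 array at each of 10 doses. The authors deposited log2 ratios per spot in 1 value table. The spots were scanned with a GenePix 4000B scanner and GenePix 5.1, per the submitters' processing notes, and further steps are not given in the sources used here. Of 22575 spots 18794 carried a gene name, for 5325 genes. Their names were brought up to date by gene number through RefSeq (assembly R64), which matched 5321. The 18 values coding a ratio of 1000000 were treated as missing, which was decided once they had been seen. No intensities were used, so the depth behind a ratio is unknown, and precision is limited by the 10 arrays.

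Each array was centred on the median of its named spots and the spots with a value were averaged per gene. A line over dose, and means of 4 dose bands with 3 contrasts between them, were fitted to all strains with limma 3.58.1 (lmFit, eBayes) in R 4.3.3. Benjamini-Hochberg adjustment ran over all 5325 strains with a threshold of 0.05. The fitting code was run on simulated data with independent normal noise and changes that were exact lines or steps. Such data lack shifts shared by whole arrays, so that run does not measure how reliable the calls are here. Percentiles, 2-fold counts and medians were computed in Python 3.11.15 with pandas 2.3.3. Alternatives were other centring and scaling, each layout section, each array left out, log2 dose, days as a covariate and arrays of equal days. Strains named were those with the highest and lowest trends in each subunit, the lowest differences at 15 and 20 µg/ml, opposite sections and the most and least alike courses. The members and lists were chosen with earlier results of these data known.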

Additional observations from a re-analysis of the deposited data

How the results depend on the processing

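No paired analysis was possible because each dose had 1 array. The count of mitochondrial ribosome strains with a rising trend was 30 in the report, against 10.3% of all strains. It was 1 with arrays scaled to equal spread (1.15% of all strains), 3 after quantile normalization (2.08%) and 16 against log2(dose + 1) (4.36%). With days of selection in the model it was 3 (2.95%), and for the 4-day arrays alone 1 (1.75%). For the 2-day arrays alone it was 0 (0% of all strains), where limma gave 1 at an unadjusted p below 0.05. Leaving out single arrays gave 17 to 37, against 5.90% to 11.5% of all strains. The median fitted change, 1.49, was 0.96 at equal spread and 0.83 after quantile normalization, and stayed between 1.33 and 1.87 under the other alternatives that kept the centring. Without centring the median of all strains shifted to 0.33, that of the members to 1.73 and their count to 36, against 16.0% of all strains. The rise from 0 and 1 to 5 and 10 µg/ml was called in 0 strains in the first section (0.301% of all strains) and 0 in the second (0.376%). It was called in 6 at equal spread (2.70%) and 9 after quantile normalization (3.57%). Without the 25, 30, 35 or 40 µg/ml array it was called in 0 to 2 (0.432% to 1.37%). Its median was 0.33 to 1.04 with single arrays left out. The rise from 15 and 20 to 25 to 40 µg/ml was called in 4 strains in the first section (1.78% of all strains) and 5 in the second (1.75%). It was called in 2 at equal spread (1.11%) and 2 after quantile normalization (0.995%), with medians of 0.56 and 0.52. Without the 25, 30, 35 or 40 µg/ml array it was called in 6 to 16 (1.35% to 4.26%). Without the 15 or the 20 µg/ml array, 1 array remained in that band and the median was 0.80 or 1.30. The median difference at 15 and 20 µg/ml against 5 and 10 µg/ml ran from -0.61 to 0.0437 with single arrays left out, and no strain of the group passed in either direction under any alternative run. The large minus small difference in median fitted change, -0.16, was -0.54 in the first section, 0.18 in the second, 0.0917 with days in the model, 0.30 for the 4-day and 0.56 for the 2-day arrays, and -0.55 to 0.0434 with single arrays left out. Of single strains, MRPL20 turned to 2.87 on the 2-day arrays, MRPL10 to -3.43 in the second section and MRPL6 to -1.79 in the first. The causes of these changes were not tested. Sizes for the 4-day and 2-day arrays are slopes carried over the full 40 µg/ml, although those arrays cover only 20 to 40 and 0 to 10 µg/ml. The depth behind a ratio is unknown, and single calls rest on 1 array a dose.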

Other observations

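By the gene order of RefSeq assembly R64, 5 of the deleted genes lie beside a gene whose own deletion strain fell. Of all strains 9.13% fell, but that share is per single strain and a gene can have 2 neighbours, so it is not a background for this count. Of these 5 members 3 rose, against 10.3% of all strains, and 2 were not called. These pairs were looked at after the values were seen. MRPL13 neighbours MEH1, whose strain had a fitted change of -6.17, and rose by 1.09 ± 0.30. RSM27 lies between RPS0A at -1.98 and GPI1 at -1.78 and rose by 1.30 ± 0.40. MRPL16 neighbours URA7 at -1.02 and rose by 3.10 ± 0.68. The strains not called were MRPL50, at -1.11 ± 0.50 beside SNF12 at -5.71, and RSM24, at -0.38 ± 0.49 between HMO1 at -1.67 and NGG1 at -1.78. MRPS12 and RSM19 were the only members that neighbour each other. RSM19 rose by 2.44 ± 0.49, and MRPS12, the uS12 protein, did not pass, at 0.72. Other members lie beside a gene whose strain rose. Of these MRPL35, MRPL37 and MRPL40 rose, and MRPL31, MRPL33, MRPL49, MRPL51, MRP10 and MRPS12 were not called. The largest such neighbour change was that of SNT309 beside MRPL51, at 4.60. Whether a neighbour has a part in these values was not tested.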
